A study of Mus musculus with 70 samples.

Results

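Untreated corn oil gavage controls were compared with untreated feed controls of set 2, a comparison of 12 of the 70 lung arrays in the series. Members were taken from the sample titles, by the vehicle code and by the digit before the hyphen of the animal identifier, which is 2 in set 2. This gave 8 corn oil mice (2-59, 2-60, 2-93, 2-95, 2-97, 2-99, 2-132 and 2-134) and 4 feed mice (2-42, 2-43, 2-44 and 2-45). All were female B6C3F1 mice, a hybrid strain used in rodent carcinogenicity testing, and were 18 weeks old at the end. The corn oil mice received the vehicle alone by gavage at 5 ml/kg on 5 days a week for 13 weeks. The feed mice ate rodent chow over the same 13 weeks and were not gavaged, so oil, gavage and handling differ together between these groups and cannot be told apart here. RNA came from the right lung lobe, with 1 Affymetrix whole-genome mouse array per mouse, and the number of arrays limits the precision. Set 1, with 3 corn oil and 3 feed mice, and the 4 water gavage controls of set 2 served for comparison. Treated mice of set 2, whose chemicals and doses are given below, served as well. The sources used here do not say what the set digit stands for.

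Corn oil is a mix of triglycerides rich in linoleic acid and is a common carrier for chemicals that do not dissolve in water. Dietary fat reaches the lung through lymph and blood as lipoprotein particles, whose lipid is taken up along the capillary endothelium. The lung also carries its own cytochrome P450 enzymes, which oxidise drugs and other foreign compounds, most of them in club cells of the airway lining.

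The tissue label was borne out by its markers. Sftpc, the surfactant protein of alveolar type II cells, measured 14.31 to 14.41 (log2 signal) over the corn oil arrays and 14.34 to 14.39 over the feed arrays. Scgb1a1 of club cells and Ager of type I cells measured at least 14.10 in every array of both groups. RNA handling differed between the groups. Feed animals 2-42 and 2-44 gave 10 ul of RNA solution for labelling and the other 10 mice 15 ul. The OD260 reading of the RNA was 1.80 ± 1.52 (SD, n = 4) in feed and 5.19 ± 2.15 (SD, n = 8) in corn oil mice (exact permutation test, two-sided, p = 0.0303). The gap between 3' and 5' probe sets for Actb and Gapdh, which widens as RNA degrades, was 0.29 ± 0.08 in feed and 0.22 ± 0.06 in corn oil mice (exact permutation test, two-sided, p = 0.113).

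Corn oil mice differed from feed mice in 505 of 14593 genes tested (3.46%). The test was limma over all 70 arrays with a mean for each of 18 groups, and a gene was called at a Benjamini-Hochberg adjusted p under 0.05. In all 244 genes were higher (1.67%) and 261 lower (1.79%) in corn oil mice, and the median difference over all genes was -0.03 log2 units. The 8 corn oil arrays lay wholly above the 4 feed arrays for 189 genes (1.3%) and wholly below them for 212 (1.45%), and 133 and 123 of these were also called. The number of calls depended on single mice. It was 165 without feed animal 2-42, 201 without 2-45, 253 without 2-44 and 828 without corn oil animal 2-99. It was 136 with the amount of RNA solution as a block and 20 when only the 12 arrays were fitted. Of the 62 called genes named below, 30 were called with that block. Only 11 were called on the 12 arrays alone: Ace, Tie1, Lbh, Tgfb1, Cbfa2t3, Fam81a, Rab5b, Raver1, Cox4i2, Nynrin and Cyp2c29.

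**Figure D1:**
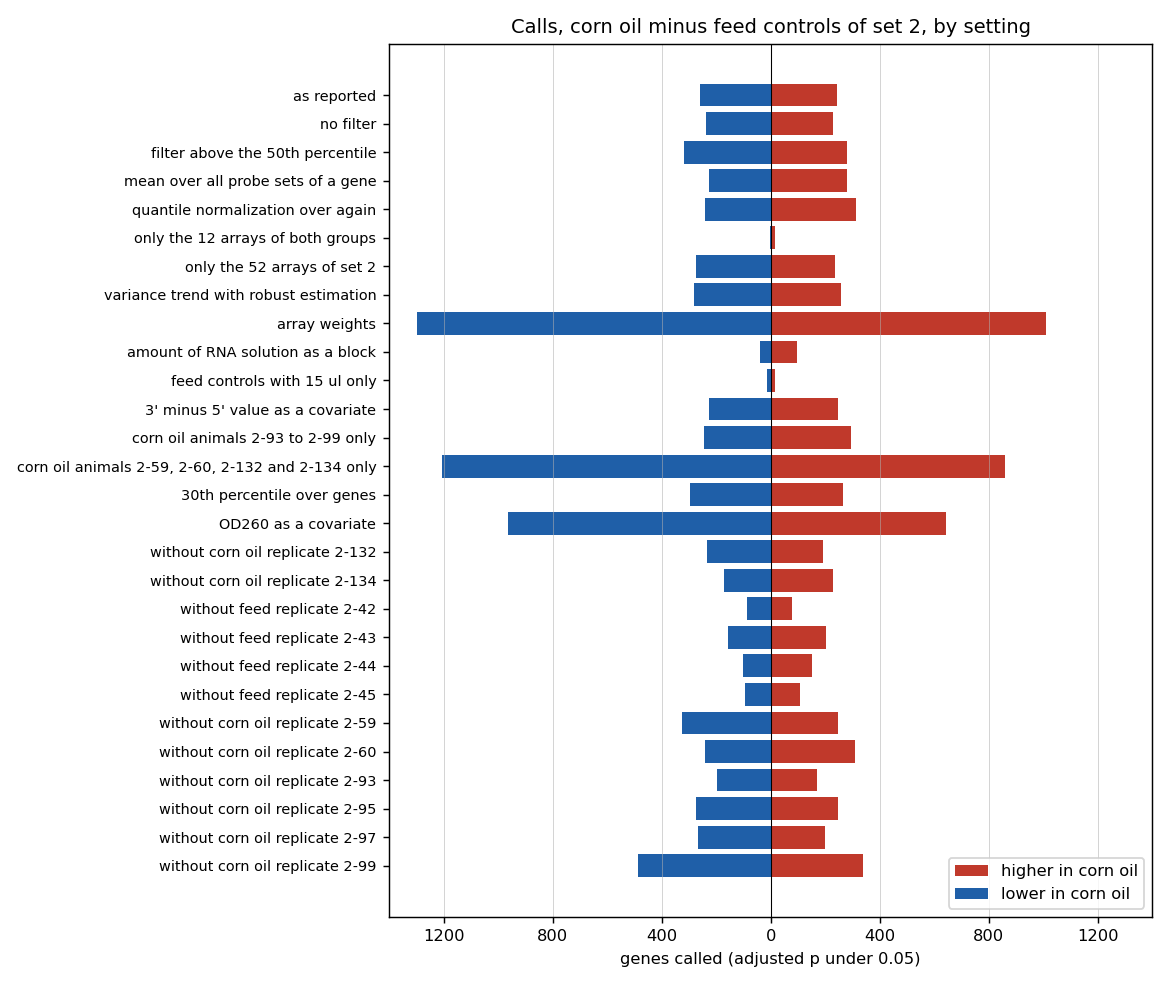
Number of genes called higher (red, to the right) and lower (blue, to the left) in corn oil than in feed controls of set 2, for the analysis as reported and for each alternative setting. The bars run from 20 calls with only the 12 arrays to 2307 with array weights, against 505 as reported.

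The largest differences were in Cyp2c29 and Cyp3a11, a pair of cytochrome P450 genes that were high in the feed mice. Phase I and esterase enzymes as a list, which does not hold these genes, gave 0 calls among 23 tested (median -0.09). Of its defining members the lung P450s Cyp2b10 and Cyp4b1 differed by -0.20 ± 0.10 and 0.04 ± 0.06 and did not pass (limma adjusted p = 0.206 and 0.728). Cyp2c29 oxidises arachidonic acid and many drugs. It measured 8.17, 9.24, 7.38 and 7.73 log2 units in feed animals 2-42, 2-43, 2-44 and 2-45, the order kept below, and 3.84 to 5.54 (median 4.16) in corn oil animals. Every feed mouse lay far above every corn oil mouse. In 5 of the 8 corn oil mice it lay below 4.25, the value under which probe sets were filtered as dim, so the fold is a lower bound: with these values set to 4.25 it was at least 11.9-fold lower in corn oil. The fitted difference was -3.73 ± 0.49 (SE; limma adjusted p = 3.07e-06), and the call held without any 1 of the 12 arrays (adjusted p 2.13e-06 to 0.000129). Cyp2c29 was too dim to be tested when the filter was set at the 50th percentile, or at the 30th percentile over genes.

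Cyp3a11, the main P450 of steroid and drug oxidation in mouse liver, measured 8.62, 9.52, 7.58 and 8.99 in feed animals. In corn oil animals it ran from 3.55 to 7.80 with a median of 4.06. Corn oil animals 2-59 at 7.80 and 2-99 at 7.21 stood near the feed mice, and the former overlapped them, while the rest lay at 4.29 or below. Here too 5 of 8 corn oil mice lay below 4.25, and Cyp3a11 was at least 12.2-fold lower with these set to 4.25. The fitted difference was -3.84 ± 0.75 (limma adjusted p = 0.00169), called without any 1 array but not on the 12 arrays alone (adjusted p = 0.0569). Cyp3a11 too was not tested with the filter at the 50th percentile.

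Cyp1a2, a P450 that the aryl hydrocarbon receptor (AhR) induces, measured 5.01, 6.75, 4.89 and 5.33 in feed mice and 4.12 to 5.21 in corn oil mice. The groups overlapped, and feed animal 2-43 was highest. It fell by 1.05 on the log2 scale (SE 0.31; limma adjusted p = 0.0468), a call that ended when any mouse other than 2-44, 2-59 or 2-99 was left out (adjusted p up to 0.275, without 2-43, where the difference was -0.63). The call also ended with the RNA amount as a block (-0.80, adjusted p = 0.238), with no filter (0.0559), in set 2 alone (0.0853) and on the 12 arrays (0.144). Cyp1a2 was too dim to be tested with the filter at the 50th percentile, or at the 30th percentile over genes. It was the 1 gene called among 6 AhR targets tested, whose median was -0.30, where 1.79% of all genes were called lower. Cyp1a1, the most inducible target, lay between 6.01 and 7.28 in the 12 arrays of both groups, which overlapped fully.

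Gstm3, a glutathione transferase, measured 6.86, 8.56, 6.75 and 7.26 in feed mice and 5.60 to 6.62 in corn oil mice. The groups did not overlap, with feed animal 2-43 again highest. Gstm3 was 2.35-fold lower in corn oil (difference -1.23 ± 0.20; limma adjusted p = 0.00016) and differed by -0.83 without 2-43, where it was still called. It differed by -0.72 when all its probe sets were averaged, also called, and was not called on the 12 arrays alone (adjusted p = 0.0905). Afp, alpha-fetoprotein, measured 6.94, 7.08, 7.78 and 7.18 in feed mice and 5.31 to 6.92 in corn oil mice. No corn oil mouse reached the lowest feed mouse. Afp was 2.01-fold lower (SE 0.30 log2 units; limma adjusted p = 0.0415), and the call ended without any 1 feed mouse or corn oil animal 2-60, 2-93, 2-95 or 2-134 (adjusted p up to 0.179, without 2-44) and with its probe sets averaged (-0.40, adjusted p = 0.119). Afp was not called with the RNA amount as a block either (limma adjusted p = 0.131), while Gstm3 was.

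Transcripts of hepatocytes, which make the plasma proteins, were examined beside these enzymes. Of 24 hepatocyte markers 18 were measured and 17 passed the filter on dim probe sets. Of these 0 were called higher and 1 lower, Cyp3a11 itself, and 15 of the other members lay lower in corn oil without passing. The list's median difference was -0.77, against -0.03 over all genes, of which 1.79% were called lower. Alb, albumin, measured 9.73, 11.17, 8.92 and 10.03 in feed mice and 7.03 to 11.18 (median 8.05) in corn oil mice. Corn oil animals 2-99 at 11.18 and 2-59 at 10.60 stood as high as the feed mice, so the groups overlapped, and the difference of -1.38 ± 0.74 did not pass (limma adjusted p = 0.28). Apoa1, the apolipoprotein of high-density lipoprotein, differed by -0.77 ± 0.50 and Ttr, transthyretin, by -0.44 ± 0.39, and neither passed (adjusted p = 0.381 and 0.532).

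The mean log2 level over the 17 hepatocyte markers was 6.67, 8.08, 6.58 and 7.00 in feed mice. It was 7.35 in corn oil animal 2-59, 7.49 in 2-99 and 5.66 to 6.16 in the other corn oil mice. Water controls lay at 5.82 to 6.26 and the 6 controls of set 1 at 5.13 to 5.40. The defining markers Alb, Apoa1 and Ttr all lay above the filter value of 4.25 in these 12 arrays, with lowest values of 7.03, 5.32 and 6.07, and Serpina1a, also a defining marker, was not matched to a probe set. Within each group the order of mice was partly shared. Among feed mice 2-43 was highest (11.17 and 9.24) and 2-44 lowest (8.92 and 7.38) in both Alb and Cyp2c29. Corn oil animals 2-59 and 2-99 were the highest of their group in Alb, Cyp3a11 and Cyp2c29. Between the groups, corn oil animal 2-99 had Alb at 11.18 with Cyp2c29 at 5.13. Feed animal 2-44 had the lower Alb and the higher Cyp2c29 of these mice. The part of liver transcripts in the P450, Gstm3 and Afp differences was not tested.

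**Figure D2:**
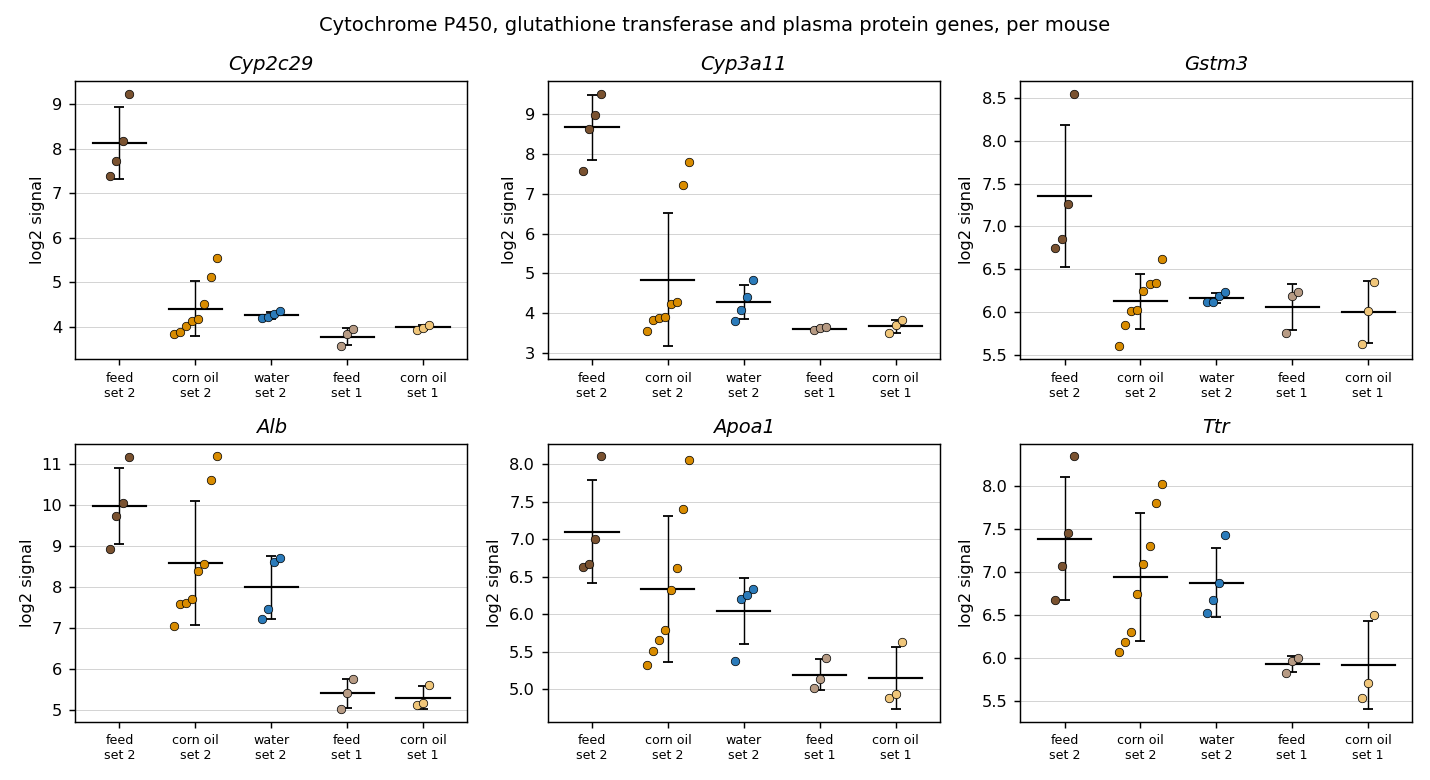
Log2 signal of 6 genes in each mouse of the feed, corn oil and water controls of set 2 and the feed and corn oil controls of set 1 (points), with the group mean (bar) and SD (error bars). Cyp2c29 lies at 7.38 or above in every feed mouse of set 2 and at 5.54 or below in every corn oil mouse, while for Alb corn oil animals 2-59 and 2-99 lie among the feed mice.

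Among the genes that rose, Lbh, a transcription cofactor of limb and heart development, had the largest difference. It measured 7.87, 7.66, 8.01 and 7.59 in feed mice and 8.40 to 9.56 (median 9.14) in corn oil mice. The groups lay apart, and Lbh was 2.51-fold higher in corn oil (1.32 ± 0.18 log2 units; limma adjusted p = 3.07e-06). Raver1, a partner of the splicing repressor PTB, measured 6.09, 6.50, 6.07 and 6.29 against 6.73 to 7.86 (median 7.34). All corn oil mice were higher, and the gene rose by 1.06 ± 0.15 (adjusted p = 1.16e-05). Cox4i2, the lung isoform of a cytochrome oxidase subunit, rose by 0.99 ± 0.16 from values of 6.05 to 6.44 in feed mice to 6.64 to 7.51 in corn oil mice (adjusted p = 0.00016).

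Tgfb1, Itga5, Ppard and Mical2 were also among the 12 largest rises. The list of fibroblast and matrix genes gave 0 calls among 31 tested (median 0.17). Tgfb1, a ligand that controls matrix production and immune tone, measured 7.98, 8.14, 8.17 and 8.22 in feed mice and 8.63 to 9.34 (median 8.95) in corn oil mice. Every corn oil mouse lay higher, and Tgfb1 was 1.77-fold higher (0.82 ± 0.14; limma adjusted p = 0.000317). Itga5, the alpha subunit of the fibronectin receptor, measured 6.40, 7.09, 6.89 and 6.47 against 7.31 to 8.21 and rose by 0.98 ± 0.16 (adjusted p = 0.00016). Ppard, a nuclear receptor for fatty acids, measured 5.74, 6.05, 5.83 and 5.84 against 6.17 to 7.12 and rose by 0.79 ± 0.15 (adjusted p = 0.0015). Mical2, an enzyme that oxidises actin, rose by 0.90 ± 0.17 (adjusted p = 0.00115), but unevenly: corn oil animals 2-93, 2-95, 2-97 and 2-99 measured 8.08 to 8.41 and the rest 7.03 to 7.39, against 6.75 to 6.98 in feed mice. The Mical2 difference was 1.42 with the former 4 alone and 0.39, not called, with the latter 4 (adjusted p = 0.0613).

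The remaining members of the 12 were Zfp395 (0.93), the endosomal GTPase Rab5b (0.87), the junction protein Jup (0.80), Nynrin (0.78) and the corepressor Cbfa2t3 (0.77). For all 12 the groups did not overlap, and the calls held without any 1 of the 12 arrays. Several sizes depended on the probe set used, here the brightest of each gene. With all probe sets averaged, Lbh rose by 0.66, Itga5 by 0.47, Ppard and Rab5b by 0.43 each and Tgfb1 by 0.39, all still called, and the Cbfa2t3 difference was 0.33 and not called (adjusted p = 0.0965).

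**Figure D3:**
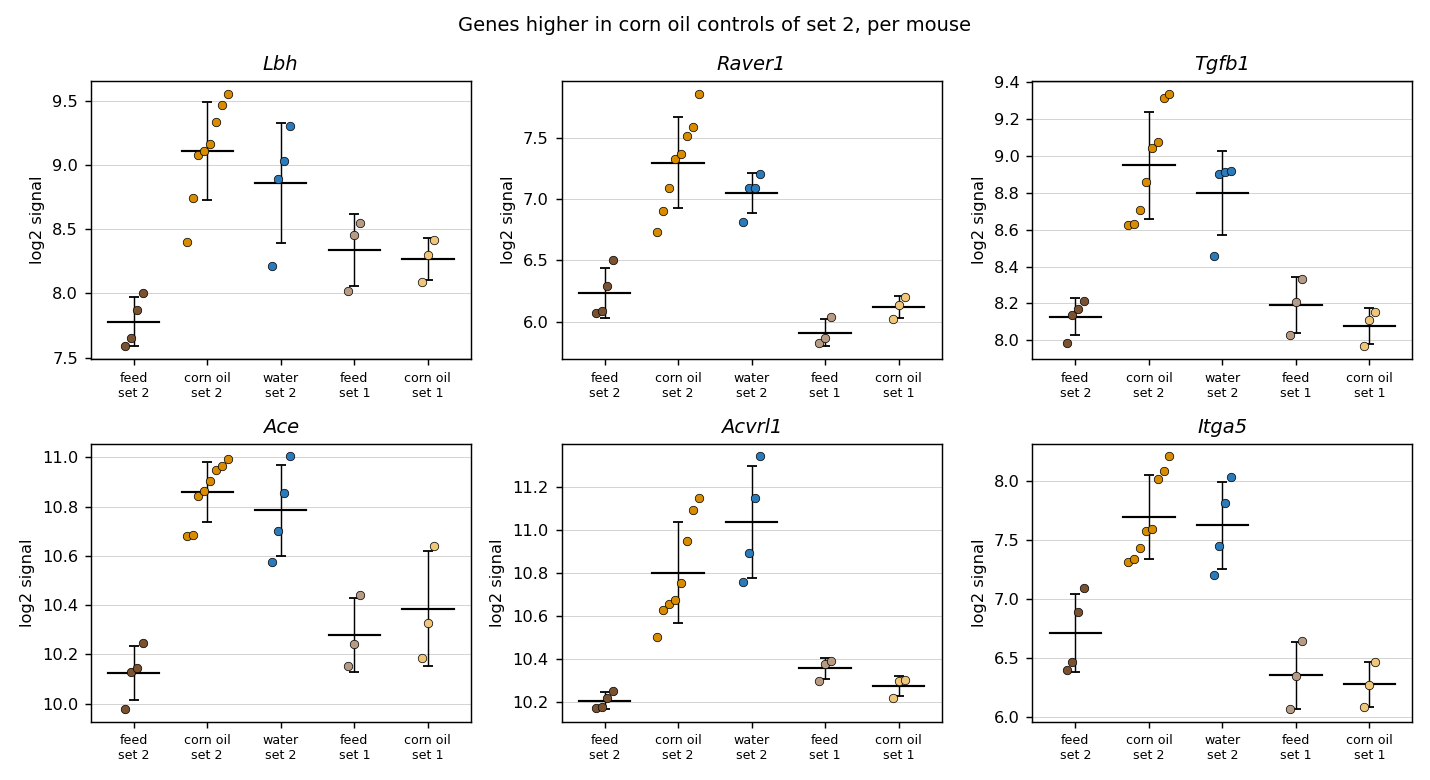
Log2 signal of Lbh, Raver1, Tgfb1, Ace, Acvrl1 and Itga5 in each control mouse (points), with group mean (bar) and SD (error bars). In set 2 the corn oil mice lie above the feed mice for all 6 genes, and the set 1 groups overlap or meet.

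Several genes of the blood vessel lining rose. All 29 endothelial markers were tested, and 7 were called higher and 0 lower, where 1.67% of all genes were called higher. The median difference was 0.19 against -0.03 over all genes. Acvrl1, an endothelial receptor of the TGF-beta family, measured 10.17, 10.18, 10.22 and 10.25 in feed mice and 10.5 to 11.15 (median 10.71) in corn oil mice. The groups lay apart, and the rise was 0.59 ± 0.12 (limma adjusted p = 0.00228). Its co-receptor Eng measured 10.80, 10.84, 11.05 and 10.88 against 11.16 to 11.56 and rose by 0.49 ± 0.12 (adjusted p = 0.0114, and 0.0584 without feed animal 2-42).

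Tie1, a receptor kinase of endothelial cells, measured 9.20 to 9.31 in feed mice and 9.63 to 9.95 in corn oil mice and rose by 0.52 ± 0.11 (adjusted p = 0.00415). Plvap, of the diaphragms of fenestrae and caveolae, rose by 0.54 ± 0.13 (adjusted p = 0.0115). The transcription factor Sox18 rose by 0.47 ± 0.13 (adjusted p = 0.025) and the junction cadherin Cdh5 by 0.40 ± 0.11 (adjusted p = 0.0361). Both of these calls ended without any 1 of feed animals 2-42, 2-43 and 2-45 or corn oil animal 2-134, and further without 2-132 for Sox18 and 2-95 for Cdh5 (adjusted p up to 0.093 and 0.126). With all probe sets averaged Cdh5 rose by 0.85. The seventh was Npr1, given below. With the RNA amount as a block 5 of the 7 were called, not Plvap or Sox18. The defining marker Pecam1 differed by 0.16 ± 0.09 and Kdr, the main VEGF receptor, by 0.12 ± 0.11, and neither passed (adjusted p = 0.334 and 0.581). In bulk lung RNA, fewer cells of a type and less RNA per cell cannot be told apart, and the same holds for more cells and more RNA.

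Of 18 genes of vascular tone tested 2 rose and 0 fell (median 0.06), where 1.67% of all genes were called higher. Ace, the endothelial enzyme that makes angiotensin II and breaks down bradykinin, measured 9.98, 10.25, 10.14 and 10.13 in feed mice and 10.68 to 10.99 (median 10.88) in corn oil mice. The groups did not overlap, and Ace was 1.67-fold higher (0.74 ± 0.13; limma adjusted p = 0.000331). Npr1, the receptor of atrial natriuretic peptide, measured 5.99, 6.05, 6.19 and 5.95 against 6.29 to 7.30 and rose by 0.76 ± 0.15 (adjusted p = 0.00264). Npr1 was also higher than in water gavage controls (by 0.67 ± 0.15; adjusted p = 0.00197), which lay at 5.84 to 6.25, close to the feed mice. Against feed, corn oil animals 2-59, 2-60, 2-132 and 2-134 alone gave a Npr1 difference of 0.43 that was not called (adjusted p = 0.0537).

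Immediate early genes, which respond to flow, stress and growth signals, gave 3 rises and 0 falls among 23 tested (median 0.09). Of all genes 1.67% were called higher. Klf2, a factor that laminar flow induces in endothelium, measured 10.40, 10.55, 10.54 and 10.31 in feed mice and 10.58 to 11.74 (median 11.23) in corn oil mice. It rose by 0.75 ± 0.21 (limma adjusted p = 0.0329, not called without any 1 feed mouse or corn oil animal 2-59, 2-60 or 2-93, up to 0.108). Rhob, an endosomal GTPase, rose by 0.53 ± 0.11 (adjusted p = 0.00369). Jun rose by 0.52 ± 0.12 (adjusted p = 0.0107, and 0.0532 without feed animal 2-42).

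Several genes of ciliated airway cells fell. Of 29 markers 28 were measured and 26 tested, of which 0 were called higher and 7 lower, and a further 18 lay lower without passing, where 1.79% of all genes were called lower. The list's median was -0.40. Its mean level was 8.25, 8.33, 7.74 and 7.98 in feed mice and 7.43 to 7.95 in corn oil mice, so feed animal 2-44 lay among the corn oil mice. Corn oil animals 2-93, 2-95, 2-97 and 2-99 were at 7.85 to 7.95 and the other 4 at 7.43 to 7.56. Markers of club and airway secretory cells, which share the airway lining, gave 0 calls among 21 tested, with 18 lower (median -0.13). Their mean level was 11.55, 11.90, 10.48 and 11.07 in feed mice. In corn oil mice it was lowest in 2-59 (10.15), 2-134 (10.22) and 2-132 (10.46) and 11.15 to 11.56 in the rest. With the RNA amount as a block none of the 7 ciliated calls held. The part of other airway cells and of RNA amount in these falls was not tested. Fam183b, a gene of motile cilia, measured 9.64, 9.65, 9.13 and 9.28 in feed mice and 8.35 to 8.93 (median 8.77) in corn oil mice. The groups did not overlap, and the fall was 1.63-fold (-0.70 ± 0.16; limma adjusted p = 0.0076, and 0.0566 without 2-42).

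Riiad1 measured 7.82, 8.10, 7.65 and 7.69 against 6.95 to 7.61 and differed by -0.58 ± 0.12 (limma adjusted p = 0.00328), which held without any 1 array. Tekt1, a protein of the ciliary microtubules, differed by -0.51 ± 0.14 (adjusted p = 0.0236, 0.0821 without 2-42, 0.0542 without 2-134 and 0.108 without 2-43) and 1110017D15Rik by -0.52 ± 0.11 (adjusted p = 0.00569, and 0.0582 without 2-43). The last 3 were Pifo (-0.48), Rsph1 (-0.45) and Dynlrb2 (-0.47; adjusted p = 0.0318, 0.039 and 0.0416). Their calls ended without any 1 of feed animals 2-42, 2-43 and 2-45 or corn oil animal 2-134 (adjusted p up to 0.158, 0.173 and 0.165). They also ended without 2-60 for Pifo and Dynlrb2, 2-59 and 2-132 for Rsph1 and Dynlrb2, and 2-97 for Rsph1. Among the 12 largest falls, Agr3 of ciliated cells (-0.80 ± 0.19; adjusted p = 0.0112, 0.0675 without 2-42 and 0.0507 without 2-43), the axonemal dynein Dnah7a (-0.68 ± 0.17; adjusted p = 0.0139, 0.0529 without 2-43 and 0.0511 without 2-45) and the kinase Stk33 (-0.70 ± 0.19; adjusted p = 0.0239) were lower as well. The Stk33 call ended without 2-42, 2-43, 2-45, 2-132 or 2-134 (adjusted p 0.0539 to 0.0821). Agr3, Dnah7a and Stk33 were not called with the RNA amount as a block (limma adjusted p = 0.0841, 0.0626 and 0.0687). Foxj1, the master regulator of motile cilia, measured 8.90, 9.42, 8.37 and 8.71 in feed mice and 8.23 to 9.64 in corn oil mice, with full overlap. The falls differed in size between corn oil animals. With 2-93, 2-95, 2-97 and 2-99 alone the differences of Tekt1 (-0.20), Stk33 (-0.29), Agr3 (-0.49) and Dnah7a (-0.39) were not called (adjusted p = 0.47, 0.451, 0.187 and 0.229). With the other 4 alone Tekt1 (-0.81) and Stk33 (-1.11) were called. Tppp3, another defining marker, differed by -0.16 ± 0.09 and did not pass (adjusted p = 0.331).

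RFX transcription factors work with Foxj1 and bind an inverted repeat, the X-box, near the start of many cilium genes. Promoters were therefore searched for it, as GTNNCCNNGGNAAC on either strand, within the 250 bases before each annotated start (RefSeq, GRCm38.p6; 27025 genes). It was present at 11 of the 222 genes called lower that had a promoter entry (4.95%), at 1 of 189 called higher (0.529%) and at 192 of 11679 tested genes (1.64%). Over all 32851 promoters the share was 1.06%. No test was run, and a match is not a bound site. Of the 11, Pifo, Cfap298, Ttc26, Tctn2 and Kif9 are genes of cilium assembly or motility, and the last 4 were picked for this after their values were seen. They are shown 5′ to 3′ on the gene's strand with the match in capitals, 20 to 188 bases before the start. For Tctn2 and Kif9 the match is on the opposite strand, so the motif reads there in the reverse complement of the capitals.
Pifo: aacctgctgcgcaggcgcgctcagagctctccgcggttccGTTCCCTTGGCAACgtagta
Cfap298: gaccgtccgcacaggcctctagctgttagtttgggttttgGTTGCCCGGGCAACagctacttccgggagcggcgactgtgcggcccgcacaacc
Ttc26: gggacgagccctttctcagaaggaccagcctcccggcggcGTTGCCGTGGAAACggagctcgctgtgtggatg
Tctn2: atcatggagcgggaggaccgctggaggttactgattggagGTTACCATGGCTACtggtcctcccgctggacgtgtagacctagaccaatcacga
Kif9: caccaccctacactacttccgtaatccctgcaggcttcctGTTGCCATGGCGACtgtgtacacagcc

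These windows lie at chr3:106001498-106001557 (Pifo, minus strand), chr16:90934984-90935077 (Cfap298, minus strand), chr6:38381451-38381523 (Ttc26, plus strand), chr5:124598647-124598740 (Tctn2, plus strand) and chr9:110476927-110476993 (Kif9, plus strand). Kif9, a kinesin of the cilium axoneme, measured 6.93, 7.07, 6.73 and 6.78 in feed mice and 6.22 to 6.67 in corn oil mice. It differed by -0.45 ± 0.11 (limma adjusted p = 0.0161, 0.0643 without 2-42 and 0.0792 without 2-43). Ttc26, of the intraflagellar transport complex, differed by -0.54 ± 0.16, Tctn2, of the ciliary transition zone, by -0.37 ± 0.10, and Cfap298 by -0.32 ± 0.09 (adjusted p = 0.0421, 0.034 and 0.0314). These 3 calls ended without 2-43 or 2-134 (adjusted p up to 0.168, 0.138 and 0.114 over all mice left out). They also ended without 2-42, 2-45, 2-60 or 2-132 for Ttc26, 2-44, 2-45 or 2-60 for Tctn2, and 2-42 or 2-44 for Cfap298. With probe sets averaged Cfap298 differed by -0.09 (adjusted p = 0.375). Kif9, Ttc26, Tctn2 and Cfap298 were not called with the RNA amount as a block (limma adjusted p = 0.0624, 0.133, 0.144 and 0.186). The remaining matches among genes called lower were 4430402I18Rik, Rpn1, Gas5, Etfbkmt, Arfip1 and Rmdn2, so the motif was not limited to cilium genes. Of the 20 ciliated markers tested with a promoter entry, Pifo, Tekt4 and Cfap206 held it.

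A few genes of T and NK lymphocytes rose. Of 25 T and NK cell markers tested 4 were called higher and 0 lower, where 1.67% of all genes were called higher. A further 20 lay higher without passing, and the list's median was 0.23. Il2rb, the interleukin-2 receptor subunit of NK and memory T cells, measured 5.06, 5.41, 5.26 and 5.44 in feed mice and 5.40 to 6.19 (median 5.85) in corn oil mice. The groups overlapped slightly, and Il2rb rose by 0.51 ± 0.12 (limma adjusted p = 0.0101, and 0.0807 without 2-42). Prf1, perforin, measured 5.22, 5.48, 5.38 and 5.32 against 5.51 to 6.47 and rose by 0.67 ± 0.18 (adjusted p = 0.0222, 0.0885 without 2-42, 0.0543 without 2-44 and 0.068 without 2-45, and 0.29 with adjusted p 0.139 for averaged probe sets). The T cell receptor subunit Cd3e rose by 0.38 ± 0.10 (adjusted p = 0.0161, 0.0615 without 2-44 and 0.077 without 2-45) and the chemokine Ccl5 by 0.76 ± 0.21 (adjusted p = 0.0329, not called without any 1 feed mouse or 2-59, 2-60 or 2-132, up to 0.094). Of 21 B and plasma cell markers tested 1 was called higher and 0 lower. A further 17 lay higher without passing and 3 lower (median 0.2). The called gene is also on the list of alveolar type II markers, where it was the 1 call among 24 tested. Neutrophil markers gave 0 calls among 15 tested (median 0.29). S100a8 spread from 9.34 to 10.89 over feed and 9.44 to 12.87 over corn oil mice, and its difference of 1.29 ± 0.51 did not pass (adjusted p = 0.136). With the RNA amount as a block Il2rb was the 1 of the 4 called T and NK cell markers still called.

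Few genes of the lipid lists were called, where 1.67% of all genes were called higher and 1.79% lower. Fatty acid and triglyceride synthesis gave 0 calls among 24 genes tested (median -0.02), and Fasn, fatty acid synthase, differed by 0.31 ± 0.11 without passing (limma adjusted p = 0.1). PPAR targets and fatty acid oxidation also gave 0 calls among 24 tested. There 22 lay lower without passing, and the median was -0.15. Its defining members Pdk4 (-0.60 ± 0.35) and Angptl4 (-0.19 ± 0.21) did not pass (adjusted p = 0.319 and 0.634). Of 20 cholesterol synthesis genes 1 was called lower, Hsd17b7 (-0.39 ± 0.10, adjusted p = 0.0136, and 0.135 without 2-42). Of 14 genes on a list of LXR targets and cholesterol efflux 1 was called higher, the lipoprotein receptor Scarb1 (0.61 ± 0.13, adjusted p = 0.00534, and 0.052 without 2-42). With probe sets averaged neither was called, at -0.18 for Hsd17b7 and 0.40 for Scarb1 (adjusted p = 0.105 and 0.0621). Hsd17b7 was also not called with the RNA amount as a block (limma adjusted p = 0.16), while Scarb1 was. A further 15 cholesterol synthesis genes lay lower without passing and 4 lay higher (list median -0.2).

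Single genes of lipid handling differed. Plin5, which coats lipid droplets and ties them to mitochondria, measured 6.90, 7.46, 6.82 and 6.90 in feed mice and 5.34 to 6.71 (median 6.35) in corn oil mice. No corn oil mouse reached the lowest feed mouse. Plin5 was 1.84-fold lower (-0.88 ± 0.21; limma adjusted p = 0.0114, and 0.0695 without 2-43), and -0.50 and not called with its probe sets averaged (adjusted p = 0.0686). It was also lower than in water gavage controls, which lay at 6.67 to 7.42 (difference -0.78; adjusted p = 0.00682). Pparg, a nuclear receptor of alveolar macrophages and fat cells, measured 7.63, 7.68, 7.85 and 7.84 against 7.04 to 7.51 and differed by -0.40 ± 0.12 (adjusted p = 0.0376, not called without any 1 feed mouse, 2-60 or 2-132, up to 0.128). Lipa, the lysosomal lipase, rose by 0.35 ± 0.10 (adjusted p = 0.0336), with overlap, and was not called without any 1 feed mouse or 2-93, 2-95, 2-97 or 2-99 (up to 0.123). Its difference was 0.56 with probe sets averaged and 0.13, not called, with corn oil animals 2-59, 2-60, 2-132 and 2-134 alone (adjusted p = 0.362). Plin5 and Lipa were not called with the RNA amount as a block (limma adjusted p = 0.0585 and 0.111), while Pparg was.

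A few antioxidant and respiratory genes fell. Of 33 NRF2 and glutathione genes tested 3 were called lower, Gstm3, Ugdh and Gclc, and 0 higher (median -0.12). Of all genes 1.79% were called lower. Ugdh, which makes UDP-glucuronic acid, measured 8.95, 9.08, 9.07 and 8.96 in feed mice and 8.34 to 8.87 in corn oil mice. It differed by -0.36 ± 0.08 (limma adjusted p = 0.00569) and held without any 1 array. Gclc, the catalytic subunit of glutathione synthesis, differed by -0.69 ± 0.20 (adjusted p = 0.037), with overlap, and was not called without 2-42, 2-43, 2-45, 2-59, 2-132 or 2-134 (up to 0.17). The Gclc difference was -0.34 with corn oil animals 2-93, 2-95, 2-97 and 2-99 alone (adjusted p = 0.427) and -1.04 with the other 4. Gclc was not called with the RNA amount as a block (limma adjusted p = 0.184), while Gstm3 and Ugdh were. Nqo1, a defining target, lay at 5.82 to 6.24 in feed and 5.41 to 6.28 in corn oil mice.

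Of 38 respiratory chain genes 3 were called lower and 0 higher, with a median of -0.15, where 1.79% of all genes were called lower. None of the 3 was called with the RNA amount as a block. Uqcrb of complex III measured 13.14, 13.16, 13.20 and 13.16 in feed mice and 12.84 to 13.01 in corn oil mice. The groups lay apart at a small difference of -0.25 ± 0.06 (limma adjusted p = 0.0151, and 0.0551 without 2-44). Cox6c of complex IV differed by -0.22 ± 0.06 and Uqcrc2 of complex III by -0.27 ± 0.08 (adjusted p = 0.0318 and 0.0405). Cox6c was not called without any 1 feed mouse, 2-93 or 2-97 (up to 0.12), nor Uqcrc2 without any mouse other than 2-45, 2-59 or 2-99 (up to 0.158). Of 17 smooth muscle and pericyte markers tested 1 was called higher and 1 lower (median 0.12). Notch3 rose by 0.56 ± 0.16, and the pericyte regulator Rgs5 fell by 0.80 on the log2 scale (SE 0.23, limma adjusted p = 0.0314 and 0.0361). Neither was called with the RNA amount as a block (adjusted p = 0.0923 and 0.124). Both calls ended without 2-42 or 2-132 (adjusted p up to 0.108 and 0.167), and further without 2-44, 2-45 or 2-93 for Notch3 and 2-43, 2-60 or 2-134 for Rgs5. With probe sets averaged Rgs5 differed by -0.20 (adjusted p = 0.264). Of the 43 gene lists 24 held 0 called genes, and 6 held 3 or more.

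The other falls among the 12 largest were Rarb, Cap2, Fam81a and 4930486L24Rik. Rarb, retinoic acid receptor beta, measured 7.37, 7.01, 7.00 and 6.96 in feed mice and 5.46 to 6.79 (median 6.47) in corn oil mice. The groups did not overlap (-0.81 ± 0.20; limma adjusted p = 0.0161, and 0.0916 without 2-42), and Rarb was not called with corn oil animals 2-93, 2-95, 2-97 and 2-99 alone (-0.45, adjusted p = 0.244). Cap2, which regulates actin filaments, measured 6.00, 5.99, 6.54 and 6.55 against 5.11 to 5.83 and differed by -0.77 ± 0.12 (adjusted p = 0.00016), which held without any 1 array. Fam81a differed by -0.73 ± 0.16 and 4930486L24Rik by -0.72 ± 0.16 (adjusted p = 0.00515 and 0.00513), and their calls ended without 2-42 (0.052) and without 2-44 (0.0655), respectively. Rarb and Fam81a were not called with the RNA amount as a block (limma adjusted p = 0.124 and 0.0724), while Cap2 and 4930486L24Rik were.

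**Figure D4:**
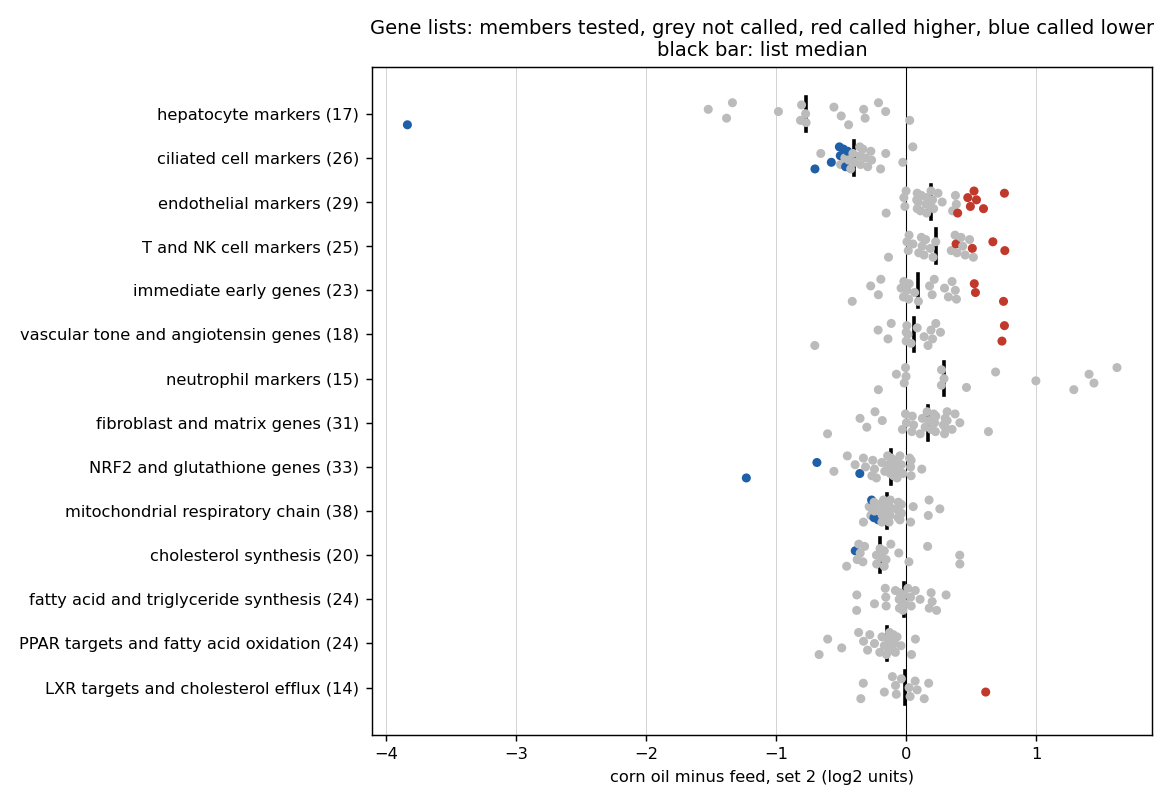
Difference between corn oil and feed controls of set 2 (log2 units) for each tested member of 14 gene lists (points; grey not called, red called higher, blue called lower; number tested in brackets), with the list median (black bar). Ciliated cell markers centre on -0.40 and endothelial markers on 0.19, and Cyp3a11 is the point at -3.84 among hepatocyte markers.

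The same vehicles in set 1 gave no call. With 3 corn oil against 3 feed mice, 0 of 14593 genes passed in limma (0%), and 266 had an unadjusted p under 0.05. Cyp2c29 measured 3.93 to 4.04 in corn oil and 3.56 to 3.94 in feed mice of set 1, so it was not high in those feed mice (0.20 ± 0.65). Lbh measured 8.09 to 8.41 and 8.02 to 8.55, with overlap. Over the 12 largest rises the set 1 differences ran from -0.24 to 0.22, with 7 above 0, and over the 12 largest falls from -0.33 to 0.20, with 10 below 0.

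The difference between the sets was tested as an interaction, and 0 genes passed in limma (0%), with 743 at an unadjusted p under 0.05. Cyp2c29 differed between sets by -3.93 ± 0.82 and Lbh by 1.40 ± 0.29 (adjusted p = 0.094 for both). The sets are therefore not shown to differ for any gene at this threshold. Across all 14593 genes the differences of the sets correlated weakly (Pearson r = 0.15, Spearman rho = 0.19), where genes are not independent replicates.

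Water gavage controls share the gavage but not the oil. Corn oil differed from water in 3340 genes (22.9%), 1789 higher (12.3%) and 1551 lower (10.6%). RNA quality measures differed between these arrays as well. The 3' to 5' gap was 0.083 to 0.164 in water and 0.159 to 0.339 in corn oil mice, and 15 of 29 splicing factor and nuclear noncoding RNA genes were called higher in corn oil (median 0.50). The part of RNA quality was not tested. Of the 12 largest rises and 12 largest falls against feed, Plin5 alone differed from water. Of the other genes named as called, Npr1, Tctn2, 1110017D15Rik, Hsd17b7, Kif9 and Riiad1 differed from water in the same direction as from feed, and Uqcrb in the opposite one. Cyp2c29 was 4.19 to 4.36 in water mice, Lbh 8.21 to 9.30, Tgfb1 8.46 to 8.92 and Ace 10.58 to 11.00. Against the shared feed controls the water differences were -3.87 ± 0.57, 1.08 ± 0.20, 0.67 ± 0.16 and 0.66 ± 0.15. Of the 244 genes higher than in feed mice 5 were called higher than in water mice and 9 lower, and of the 261 lower ones 39 were called lower and 8 higher.

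Treated mice of set 2 gave a comparison with other arrays. The 3 chemicals in corn oil (benzene, coumarin and 1,2-dibromoethane, by gavage) were set against the 4 in feed (2,2-bis(bromomethyl)-1,3-propanediol, 4-nitroanthranilic acid, malathion and diazinon), so the difference also carries the chemicals' own effects. RNA amount differed too: 7 of the 16 feed arrays had 10 ul and 0 of the 12 oil arrays. One oil array, 1,2-dibromoethane animal 2-56, had a 3' to 5' gap of 0.989, against 0.136 to 0.381 in the other 11. The comparison called 1691 genes (11.6%), 523 higher (3.58%) and 1168 lower (8%). Of the 244 genes higher in corn oil controls, 87 were higher here too, which is 35.7% of that list and 16.6% of the 523, and 0 were called lower. Of the 261 lower in corn oil controls, 79 were lower here, 30.3% of that list and 6.76% of the 1168, and 7 were called higher. With the RNA amount as a block 711 genes were called, with 45 of the 244 and 33 of the 261 in the same direction, and without animal 2-56 1529, with 82 and 81. Across genes the 2 differences correlated at Pearson r = 0.41 (Spearman rho = 0.37), from mice processed in the same set.

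All 12 of the largest rises were above 0 in the treated mice, at 0.22 to 0.79, and 10 of them were called (8 with the RNA amount as a block, 12 without animal 2-56). Lbh differed by 0.79 ± 0.11 (limma adjusted p = 3.3e-06) and Raver1 by 0.61 ± 0.09 (adjusted p = 1.87e-05). Tgfb1 at 0.22 ± 0.09 and Rab5b at 0.24 ± 0.09 did not pass (adjusted p = 0.0852 and 0.0862). The falls carried over less evenly: 7 of 12 lay below 0 and 3 of them were called, Cyp2c29 (-1.59 ± 0.31), Plin5 (-0.49 ± 0.13) and Cap2 (-0.27 ± 0.08). With the block Cyp2c29 and Cap2 were called. Gstm3 (0.03 ± 0.13) and Agr3 (0.20 ± 0.12) showed no difference that passed.

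Gene lists gave other counts in that comparison, where 3.58% of all genes were called higher and 8% lower. Of 17 hepatocyte markers 15 were called lower with oil gavage, with a median of -1.03. Cyp2c29 ran from 5.75 to 7.92 with 4-nitroanthranilic acid, from 4.25 to 7.08 with 2,2-bis(bromomethyl)-1,3-propanediol, from 3.85 to 6.74 with malathion and from 3.83 to 8.15 with diazinon, and from 3.72 to 5.82 with benzene, 3.60 to 5.42 with coumarin and 3.93 to 4.33 with 1,2-dibromoethane. In the same order Alb ran from 10.01 to 10.73, 8.28 to 11.41, 8.52 to 10.92 and 7.65 to 12.28, and from 5.96 to 10.55, 6.26 to 10.76 and 6.15 to 8.15. The part of liver transcripts was not tested here either. Of 26 ciliated markers 3 were called higher and 0 lower (median 0.12), and of 29 endothelial markers 2 were called higher and 3 lower (median 0.07). The T and NK cell markers gave 0 higher and 4 lower (median -0.05). Of 24 genes of PPAR targets and fatty acid oxidation 0 were called higher and 9 lower (median -0.17). Pdk4 (-0.827) and Angptl4 (-0.575) were both called there (limma adjusted p = 0.00889 and 0.00276). Fatty acid and triglyceride synthesis gave 3 higher and 0 lower, cholesterol synthesis 1 and 2, and LXR targets and cholesterol efflux 0 and 4.

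**Figure D5:**
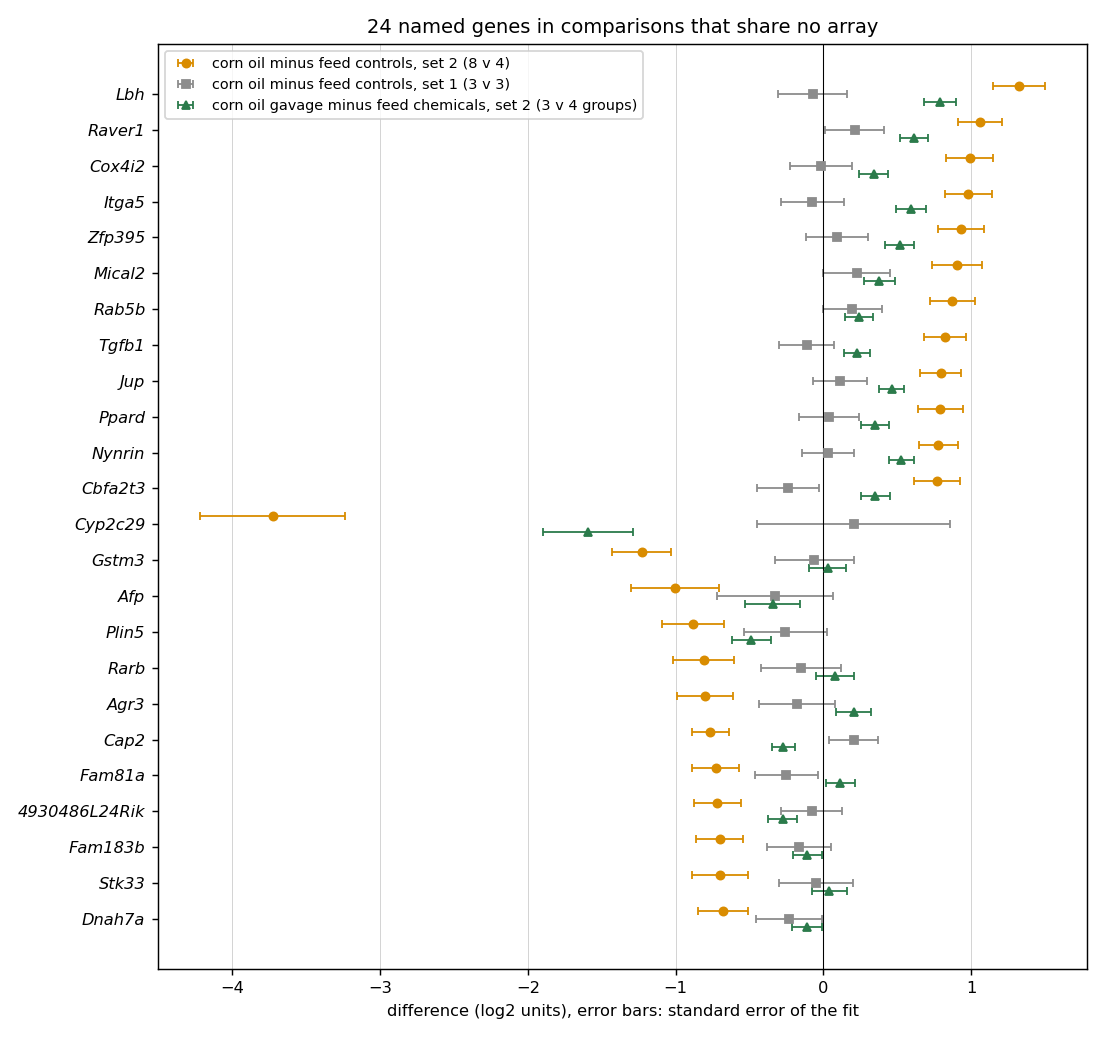
Differences (log2 units, with SE of the fit) of the 24 named genes between corn oil and feed controls of set 2 (circles), of set 1 (squares) and between corn oil gavage and feed chemicals of set 2 (triangles), 3 comparisons with no array in common. The 12 rises lie at 0.77 to 1.32 in set 2 controls, at -0.24 to 0.22 in set 1 and at 0.22 to 0.79 in treated mice.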

How the data were processed

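Total RNA (Trizol, then RNeasy) was labelled with biotin and measured on Affymetrix whole-genome mouse arrays, per the labels' protocols. The authors deposited 1 value per probe set and array, read here as log2 signals because they run from 2.47 to 14.53. Their summarization and normalization are not given in the sources used here. Of 45101 probe sets, 34945 carried 1 gene symbol in the platform annotation, 932 several and 9160 none, and 64 were controls. Each of 18193 genes was represented by its probe set of highest mean, and 14593 genes above the 30th percentile of probe set means (4.25) were tested. No array pair was identical (highest r 0.9972).

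Differences, SE and adjusted p come from limma 3.58.1 in R 4.3.3 (lmFit, eBayes, Benjamini-Hochberg over all genes tested), fitted to 70 arrays in 18 groups. Quality measures were compared by exact permutation tests. Gene lists (43 lists, 915 of 996 entries matched) are described by counts and medians. The members and lists were chosen with earlier results of these data known. Genes were named by rule, of which the text gives a selection: the 12 largest rises and 12 largest falls among called genes whose groups did not overlap, the defining members of each list and up to 4 called members of each list by smallest adjusted p. Plvap, Sox18, Pifo and the genes with a promoter match fall outside it and were chosen after their values were seen. Promoters were those of RefSeq, GRCm38.p6. Where corn oil values lay below the filter value, folds were bounded by setting them to it. The fit was tested on simulated data with 200 changed genes and independent noise for each gene and array. It recovered 72.5% of 1.5-fold, 94.4% of 2-fold and 100% of 4-fold changes, with 8 false calls. The simulation held no variation shared by genes within an array and no difference in RNA amount, so it does not bear on these. Alternatives changed the filter, the choice of probe sets, the normalization, the arrays fitted, the variance model, covariates for RNA amount and quality, and left out each array in turn.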

Additional observations from a re-analysis of the deposited data

Results flagged for a closer look

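In 6 of the groups examined, 1 array stood apart from the rest of its group by more than the range of the others would lead to at the 95% level of Dixon's test. Chance flags about 1 in 20 groups, and 164 were examined. Feed animal 2-43 had Plin5 at 7.46, against 6.82 to 6.90 in the other feed mice, Hmox1 (heme oxygenase, not called between the groups) at 8.76, against 8.13 to 8.18, and S100a9 (a neutrophil calcium-binding protein, not called) at 8.59, against 9.97 to 10.06. Feed animal 2-42 had Rarb at 7.37, against 6.96 to 7.01. Corn oil animal 2-95 had S100a8 at 9.44, against 11.34 to 12.87. Corn oil animal 2-99 showed a gap between 3' and 5' control probe sets of 0.34, where the rest of its group ran from 0.16 to 0.24.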

How the results depend on the processing

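Of 505 calls, the number fell to 136 with the amount of RNA solution as a block, to 31 with the 2 feed controls of 15 ul alone and to 20 with only the 12 arrays, where 1966 genes had an unadjusted p under 0.05. It grew to 2307 with array weights, to 2064 with corn oil animals 2-59, 2-60, 2-132 and 2-134 alone and to 1604 with OD260 as a covariate, an alternative chosen after seeing the data. Leaving out 1 array gave 165 to 828 calls. Other alternatives (no filter, the 50th percentile, the 30th percentile over genes, mean of probe sets, quantile normalization, set 2 alone, a robust variance trend, the 3' minus 5' covariate, corn oil animals 2-93 to 2-99 alone) gave 468 to 597. The set difference had 0 calls, and 119 with array weights. The treated-mouse comparison had 1691 calls, 711 with the RNA amount as a block and 1529 without 1,2-dibromoethane animal 2-56, both chosen after seeing the data. The cause of these shifts was not tested. The 50th percentile filter left Cyp2c29, Cyp3a11, Cyp1a2, Rgs5 and Dnah7a untested. All 62 called genes named kept their direction under every alternative that tested them. Of these, 24 were called without any 1 array, and 31 to 61 were called in each such fit. With the RNA amount as a block 30 were called, with 15 ul feed controls alone 15 and with the 12 arrays 11. No paired analysis was possible because the animal identifiers are unique to each mouse.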
